A study of Mus musculus with 8 samples.

Results

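The clustered replication-dependent histone genes encode the linker histone H1 and the core histones H2A, H2B, H3 and H4. They were defined by symbol and gene type, with no measured value in the rule, as the protein-coding genes of the mm9 annotation whose symbol begins with Hist1h, Hist2h, Hist3h or Hist4h. There were 67 of them among 22367 protein-coding genes. The regions enriched for BRG1, the ATPase that drives SWI/SNF remodelling of chromatin had been called from chromatin immunoprecipitation and sequencing of whole hearts.

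The hearts came from adult mice, C57BL/6 and 10 to 12 weeks old by the labels. The methods name the primed wild-type mice C57BL/6J and give a somewhat older range for infarcted mice. Before injury they had been primed for 1 week, either with the peptide thymosin β4 (Tβ4, 12 mg/kg per daily injection into the peritoneum) or with PBS alone. Hearts were collected 4 days after an infarction made by closing the LAD coronary artery, and the same agent was given again on days 0 and 2. The 8 libraries comprised 2 BRG1 immunoprecipitates and 2 inputs for each of the PBS and Tβ4 treatments. The list used here names the Tβ4-primed, injured hearts over their input and does not separate the duplicates. It gives positions only, so there is no replicate error and no test, and the depth is unknown. Whole hearts mix cell types, and a region listed in few cells cannot be told apart from a weaker one in many. The PBS-primed hearts were not analysed here.

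Replication-dependent histone genes are switched on in S phase, when new DNA has to be packaged. They usually lack introns, and their mRNAs end in a conserved stem-loop, bound by the stem-loop binding protein SLBP, in place of a poly(A) tail. Many H2A and H2B genes stand back to back and share the short stretch between their starts. The factor NPAT gathers at the clusters in a nuclear structure known as the histone locus body.

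The label was checked in the reference sequence. A stem of 6 base pairs that begins with GG and ends with CC, around a loop of 4 bases that begins with TT, was found within 200 bp after the annotated coding sequence in 61 of the 67 genes (91.0%), against 18 of 22300 other protein-coding genes (0.0807%). One of those 18 was H2afx, the H2A variant of the DNA damage response. The forms below are shown because they mark the genes as one class. Capitals are the paired stem and the loop is in lower case. The first was carried by 39 genes, the second by 9 and the third by 8, all of which encode H4.
form in 39 genes: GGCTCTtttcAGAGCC
form in 9 genes: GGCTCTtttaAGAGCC
form in 8 genes: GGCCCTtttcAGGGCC
No such element was found for Hist2h2be, Hist2h2bb, Hist1h2an, Hist1h3g, Hist1h4a or Hist1h2al. The remaining 5 genes held other forms of the same shape.

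The sequences between back-to-back genes are shown next, since many H2A and H2B genes share them as promoters and their cover differed from none to all. Each runs from the base after one annotated start to the base before the other, on the + strand of mm9. Capitals mark 3 short motifs on either strand, the CCAAT box, the TATA box (letters TATAAA) and the octamer (letters ATTTGCAT). The first pair lay wholly inside a region, the second in part, and the last 2 had no region between the starts.
Hist1h2ah/Hist1h2bk (chr13:22127513-22127689, + strand): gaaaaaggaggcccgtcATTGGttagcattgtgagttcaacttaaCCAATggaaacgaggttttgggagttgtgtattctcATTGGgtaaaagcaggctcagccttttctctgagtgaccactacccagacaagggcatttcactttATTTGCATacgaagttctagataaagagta
Hist2h2ac/Hist2h2be (chr3:96024804-96025043, + strand): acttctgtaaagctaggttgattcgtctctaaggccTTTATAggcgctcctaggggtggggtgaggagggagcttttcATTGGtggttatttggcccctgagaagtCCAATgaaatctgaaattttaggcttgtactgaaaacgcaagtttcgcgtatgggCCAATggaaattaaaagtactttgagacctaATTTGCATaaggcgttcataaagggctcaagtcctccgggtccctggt
Hist1h2ae/Hist1h2bg (chr13:23663090-23663264, + strand): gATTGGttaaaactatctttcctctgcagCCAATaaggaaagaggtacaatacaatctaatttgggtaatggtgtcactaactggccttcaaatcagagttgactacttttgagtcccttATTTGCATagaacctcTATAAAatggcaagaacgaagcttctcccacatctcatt
Hist1h2bq/Hist1h2ao (chr13:21902069-21902235, + strand): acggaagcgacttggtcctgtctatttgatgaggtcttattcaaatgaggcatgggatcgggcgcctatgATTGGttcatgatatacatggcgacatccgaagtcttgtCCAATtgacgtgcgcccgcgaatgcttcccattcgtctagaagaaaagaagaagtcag
The last of these recurs without a mismatch over its 167 bp, on the other strand, between Hist1h2ap and Hist1h2br, and it was chosen for display after this was seen.

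Among 13 such pairs, 12 joined an H2A with an H2B gene and the other joined Hist1h2bh with Hist1h3f. The stretch between the starts had a median length of 240 bp and ranged from 167 to 692 bp. Regions touched 3 of the 13 (23.1%) and covered 6.46% of their bases. Among 288 back-to-back stretches of similar length between other protein-coding genes, 93 were touched (32.3%) and 22.9% of bases was covered. Those stretches were somewhat longer, with a median of 286 bp against 240 bp, and the comparison was chosen after the pairs were seen. The 177 bp between Hist1h2ah and Hist1h2bk were covered in full by a single region of 1080 bp, which also took in both starts and the whole body of Hist1h2bk. Between Hist2h2ac and Hist2h2be 15% of 240 bp was covered, and between Hist1h2ag and Hist1h2bj 1.14% of 264 bp. The remaining 10 stretches, among them those of Hist1h2ac with Hist1h2bc, Hist1h2ae with Hist1h2bg and Hist1h2ak with Hist1h2bn, held no region. The genes on either side could still be touched. The body of Hist1h2bg, for example, was covered to 44.2% and that of Hist1h2ac to 34.4%.

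All members were then measured in the same 3 windows. At least 1 region touched the gene body of 31 of 67 genes (46.3%, 95% Wilson interval 34.9 to 58.1%), while the share over all protein-coding genes was 84.1%. That background comes from far longer genes, with a median of 15427 bp against 530 bp. Among 3656 other protein-coding genes of like length, between 391 and 2753 bp, the share was 44.8%. These Wilson intervals cover counting error only, and they treat as independent genes that in fact share windows.

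A region lay within 500 bp of the annotated start of 35 members (52.2%, interval 40.5 to 63.8%), where the background was 43.9% and the like-length share 42.0%. Within 5 kb the count was 66 of 67 (98.5%, interval 92 to 99.7%), beside a background of 90.5% and 89.8% at like length. The start base itself lay inside a region in 12 members (17.9%, interval 10.6 to 28.8%). The background for that measure was 24.2%, and the like-length share was 25.2%. The gene body lay wholly inside regions in 3 members (4.48%), against a background of 2.2% and 10.4% of genes of like length. These were Hist1h3h, Hist1h4k and Hist1h2bk.

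Near these genes the number of regions was high while the covered share was not. Within 5 kb of the start the median member was touched by 4 regions, where the median over all protein-coding genes and over those of like length was 2. At least 3 regions were present for 52 members (77.6%), against 49.8% of all protein-coding genes and 42.9% of those of like length. The covered share of the same windows had a median of 22.9% in the members, 22.2% over all protein-coding genes and 20.7% at like length. Ranked among the 200 protein-coding genes nearest in length, the members had a median percentile of 80.5 by number of regions and of 54.5 by covered share.

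**Figure D1:**
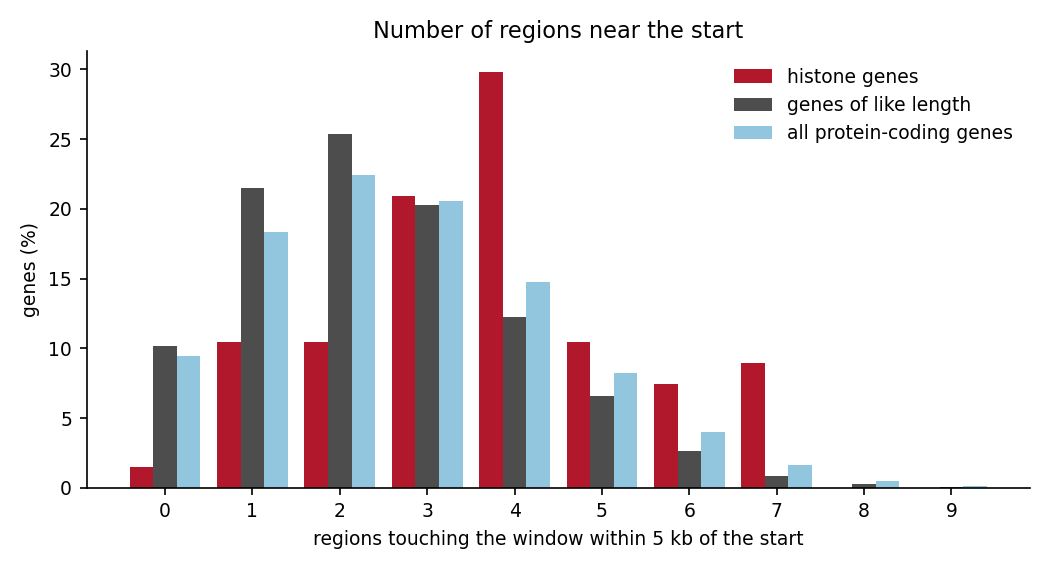
Share of genes (%, vertical axis from 0) by the number of regions that touch the window within 5 kb of the start (horizontal axis, 0 to 9), for the 67 histone genes, the genes of like length and all protein-coding genes. The histone genes peak at 4 regions and the other groups at 2.

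The regions around the histone genes were short. The 111 distinct regions within 5 kb had a median of 480 bp, and 57.7% of them were under 600 bp. Over the whole list the median was 600 bp and 49.0% were under that length, and around genes of like length the median was 660 bp. With regions under 600 bp left out, the median member was touched by 1 region, the same number as the median of all protein-coding genes, and its covered share was 11.4% against 16.8%. Counted once each over the merged windows, regions under 600 bp numbered 64, or 0.203 per kb against 0.0968 over the whole list, and longer ones 47, or 0.149 against 0.101 per kb. A region only partly inside a merged window counts in full there, which raises these densities relative to the whole list. The mean number per member was 2.18 shorter regions, against 1.12 at like length, and 1.55 longer ones, against 1.28. By these means per gene the members had more regions of both kinds, with the wider gap in the shorter ones. With longer regions alone 80.6% of members still had one within 5 kb, beside 74.4% of all protein-coding genes, but within 500 bp the order turned, 26.9% against 31.0%.

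Members are neighbours, so one region can serve several of them. Another member lay within 5 kb of the start of 59 of the 67 genes. The 67 windows merged into 19 separate stretches of 315676 bp in all, 28.9% of which was covered. Over the whole of the chromosomes the list covered 25.8% at 0.198 regions per kb.

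Position relative to the start was followed in steps of 500 bp, in the direction of transcription. The covered share of the members was lowest, at 16.9%, in the first 500 bp after the start, where most of a histone gene lies. It was 22.6% in the 500 bp before the start and 29.5% from 500 to 1000 bp after it, and it was highest, at 32.7%, from 2000 to 2500 bp. Over all protein-coding genes the same first step held 24.8% and the range over all steps ended at 27.7%. Genes of like length held 24.4% there, and 27.2% at most. In finer steps of 100 bp the lowest value of the members was 15.1%, from 300 to 400 bp after the start, where genes of like length held 24.5%. The share of genes touched differed less. A region touched the first 500 bp after the start in 32.8% of members, 34.8% of genes of like length and 35.7% of all protein-coding genes. In the steps just before and after, 40.3 and 46.3% of members were touched. Members share windows, and these differences were not tested.

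**Figure D2:**
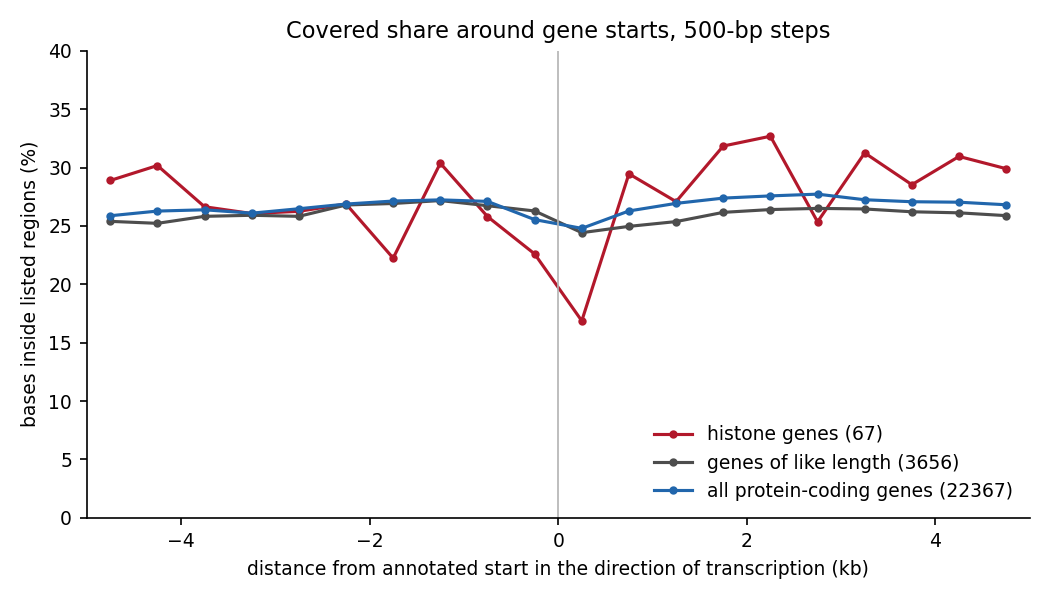
Share of bases inside listed regions (%, vertical axis from 0) by distance from the annotated start (kb, horizontal axis), in 500-bp steps, for the 67 histone genes, the genes of like length and all protein-coding genes. The histone genes fall to 16.9% in the first 500 bp after the start, whereas the other groups stay between 24.4 and 27.7% throughout.

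The low step was also seen with starts taken at the first coding base (17.3% against 24.2% at like length), with neighbouring regions joined (20.3% against 26.4%) and with regions under 600 bp left out (10.1% against 20.6%). These settings were chosen after the profile was seen. In the Hist1 cluster alone it was 17.6%, and in the 12 other members 13.5%. By protein it was 0% for H1, 14.6% for H3, 16.4% for H2A, 19.4% for H2B and 23.7% for H4, so the H4 genes lay close to genes of like length.

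The 3′ side differed from the gene itself. The mean covered share was 21.5% in the members' gene bodies, 33.6% in the 500 bp beyond their annotated ends and 33.2% in the 500 bp after that. For genes of like length the same 3 values were 24.6, 26.2 and 26.6%. Upstream, the members had 22.6% in the nearest 500 bp and 25.8% in the next, against 26.3 and 26.7% at like length. The low stretch began before the start, with 18.2% from 200 to 100 bp upstream and 16.6% in the last 100 bp, where genes of like length held 25.7 and 25.3%.

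Sequence copies were counted, since the authors discarded reads with more than 2 alignments and histone genes resemble one another. Of the 50-base stretches that start in members' gene bodies, 16.9% had more than 2 exact matches in mm9, against 10.8% at like length. Long gene models dilute that share, and the median per gene was 35.5% in the members and 0 at like length. Within 500 bp of the start the shares were 25.3 and 11.1%. In the members' gene bodies 22.5% of repeated starts were inside regions and 21.0% of the others. In the bodies of genes of like length the values were 18.2 and 25.3%. The 21 members with at least 50% of the body in such stretches held 26.2% in the first 500 bp after the start, and the 46 other members 12.6%. The 50-base length is a setting of the count, so these shares do not measure how many reads were discarded. The part of discarded reads in these values was not tested. A body region was found in 8 of the 21 and in 23 of the 46, beside 44.8% at like length and 84.1% over all protein-coding genes.

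Exact duplicates were compared to see how the list differed between copies. The bodies of Hist1h2ao and Hist1h2ap are identical over 519 bp, yet 62.6% of the former and none of the latter was covered. Hist1h2bq and Hist1h2br are identical over 3788 bp and were covered to 0 and 6.34%. Hist2h2aa1 and Hist2h2aa2, identical over 578 bp, had no region in either body, although the covered share within 5 kb was 9.89% for the former and 19.2% for the latter. How reads with 2 equal alignments were placed was not given in the sources used here, so cover of one identical body cannot be securely assigned to that copy.

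Linker histone H1 binds the DNA that enters and leaves the nucleosome. Its 6 genes all lie in the Hist1 cluster. None had its start inside a region, and only Hist1h1c had a region within 500 bp, which covered 17.4% of that window. Bodies were touched in Hist1h1d (6.28%) and Hist1h1t (9.79%), the latter a testis form. The background shares are 24.2, 43.9 and 84.1%, and with 6 genes the first 2 lie within the Wilson intervals of H1, 0 to 39.0% and 3 to 56.4%. For bodies the interval is 9.68 to 70%, which includes the 44.8% of genes of like length. The wider surroundings were mixed, with a covered share within 5 kb of 45.7% for Hist1h1t, 44.0% for Hist1h1b, 40.5% for Hist1h1c, 23.0% for Hist1h1d and 22.4% for Hist1h1e. Hist1h1a was the single member with no region in this window. Its nearest region was 5148 bp upstream. The 200 bases before its start are given here because they hold a TATA box and a CCAAT box, in capitals, and no region.
Hist1h1a (chr13:23855337-23855536, + strand): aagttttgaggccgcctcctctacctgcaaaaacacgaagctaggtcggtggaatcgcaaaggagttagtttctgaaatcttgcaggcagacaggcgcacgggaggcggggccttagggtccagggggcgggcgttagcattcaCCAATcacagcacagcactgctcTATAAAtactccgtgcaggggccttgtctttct

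The 19 H2A genes encode the core histone that pairs with H2B. A region touched the body of 9 (47.4%, with 84.1% over all protein-coding genes and 44.8% at like length) and lay within 500 bp of the start of 10 (52.6%, with 43.9 and 42.0%). The start base was inside a region in 2 of the 19, Hist1h2ah and Hist2h2ac (10.5%, interval 2.94 to 31.4%), with 24.2% over all protein-coding genes and 25.2% at like length. The covered share within 5 kb had a median of 19.2% and ran from 2.40% at Hist1h2aa to 60.8% at Hist1h2ad. Hist1h2ae reached 60.6%, although the 500 bp on each side of its start held no region. Hist1h2ag, at 8.22%, was among the 5 lowest members.

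Of the 18 H2B genes, 12 were touched within 500 bp of the start (66.7%, interval 43.8 to 83.7%), 10 in the body and 4 over the start base. The background was 43.9, 84.1 and 24.2% in that order, and genes of like length had 42.0, 44.8 and 25.2%. For the first, the background lies just inside the interval and the 42.0% at like length just outside it. Those 4 were Hist1h2bk, Hist1h2bj, Hist1h2bb and Hist3h2ba. The median covered share within 5 kb was 25.1%. Hist1h2bf was the highest of all members at 62.6%, followed among H2B genes by Hist1h2bg at 58.8% and Hist1h2bm at 56.8%. Hist1h2bj combined a body covered to 90.1% with only 5.57% within 5 kb, since one 420-bp region made up most of what was listed there. Hist1h2ba, a testis form, had 2.40%, the same value as its partner Hist1h2aa, and neither had a region within 500 bp of its start.

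H3, whose tail carries many of the studied histone marks, is encoded by 11 members. A region lay within 500 bp of 5 starts and touched 5 bodies (45.5% each). The backgrounds were 43.9 and 84.1%, and genes of like length had 42.0 and 44.8%. The start base was inside a region in 4 of 11 (36.4%), with 24.2% over all protein-coding genes and 25.2% at like length. These were Hist1h3h, Hist1h3e, Hist1h3d and Hist1h3b. They differed in form. A region of 4920 bp reached 997 bp upstream of Hist1h3h and enclosed the whole gene. At Hist1h3d a 210-bp region began only 2 bp before the start, and at Hist1h3e and Hist1h3b the regions extended 461 and 376 bp upstream but 48 and 43 bp into the gene. With counts this small the interval for H3 ran from 15.2 to 64.6%. It includes the background and the shares of H2B and H4 genes but not those of H2A and H1. It overlaps the intervals of H2A, 2.94 to 31.4%, and of H1, 0 to 39.0%. The differences between classes were not tested. The median covered share within 5 kb was 19.8%.

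H4 joins H3 in the inner tetramer of the nucleosome. Its 13 genes encode a single protein of 103 residues from 12 distinct coding sequences. A region lay within 500 bp of 7 starts and touched 5 bodies, and Hist1h4k and Hist1h4b had the start base inside. These shares were 53.8, 38.5 and 15.4%, beside 43.9, 84.1 and 24.2% over all protein-coding genes. Genes of like length had 42.0, 44.8 and 25.2%. The body of Hist1h4k lay wholly within a region of 1590 bp. That of Hist1h4b was covered to 69.5%. The median within 5 kb was 24.4%. The H4 promoters also differed in letters, with a CCAAT box in 4 of 13.

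Upstream sequences of the 2 members with 100% of the 500 bp on both sides of the start covered, Hist1h3h and Hist1h4k, are set side by side here. The 200 bases run 5′ to 3′ towards the gene, with TATA and CCAAT boxes in capitals. Both hold a TATA box, and only the former holds a CCAAT box.
Hist1h3h (chr13:21809297-21809496, + strand): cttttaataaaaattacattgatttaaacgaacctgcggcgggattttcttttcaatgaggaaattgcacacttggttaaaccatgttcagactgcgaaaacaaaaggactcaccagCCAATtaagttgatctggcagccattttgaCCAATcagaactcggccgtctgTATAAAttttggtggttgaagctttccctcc
Hist1h4k (chr13:21842375-21842574, - strand): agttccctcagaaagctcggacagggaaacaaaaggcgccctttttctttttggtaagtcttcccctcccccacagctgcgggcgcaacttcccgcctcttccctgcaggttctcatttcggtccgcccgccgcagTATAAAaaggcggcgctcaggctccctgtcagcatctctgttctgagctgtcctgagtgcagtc
This window was fully covered in 2 of 67 members (2.99%), beside 10.4% over all protein-coding genes and 11.7% at like length. The difference was not tested.

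**Figure D3:**
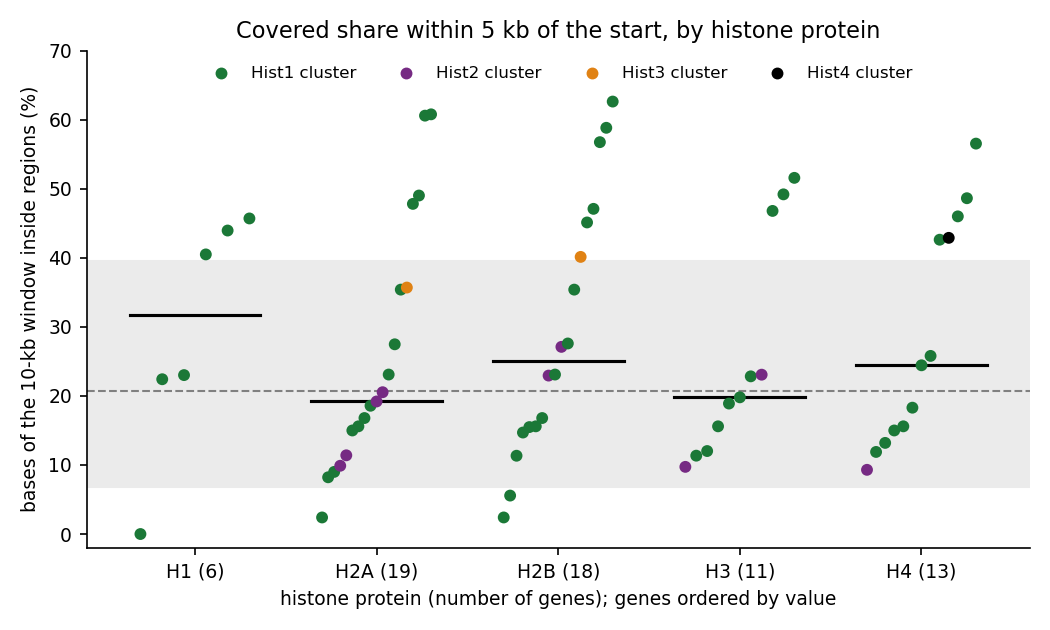
Covered share of the 10-kb window around each start (%, vertical axis), one point per gene ordered by value within each histone protein and coloured by cluster. Black bars are medians, the dashed line and grey band are the median and the quartiles of genes of like length. The class medians lie between 19.2% (H2A) and 31.8% (H1), and single genes spread from 0 to 62.6%.

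Across the 67 members the covered share and the number of regions went together only in part, with a Spearman correlation of 0.52 over genes that share windows, given as a description.

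Promoter letters were searched on both strands from 250 bp before to 50 bp after the start. The CCAAT box was present in 57 members (85.1%), against 37.9% of all protein-coding genes and 39.0% of those of like length. The TATA box was present in 38 (56.7%), against 13.4 and 28.1%. The octamer was present in 15 (22.4%), against 1.73 and 2.52%, and it was found in 7 H2A and 8 H2B genes and in no H1, H3 or H4 gene. Regions lay within 500 bp of the start of 10 of the 15 genes with the octamer and 25 of the 52 without it. With the TATA box the count was 18 of 38, and without it 17 of 29. With the CCAAT box it was 29 of 57, and without it 6 of 10. Over all protein-coding genes these shares were 44.6% with the octamer and 43.8% without it, 42.5% with the TATA box and 44.1% without it, and 44.9% with the CCAAT box and 43.2% without it.

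Place in the genome came next. Members within 100 kb of each other formed 8 groups, of which the largest were a group of 29 and one of 18 in Hist1 on chromosome 13 and the 9 genes of Hist2 on chromosome 3. In the Hist2 group, chr3:96023839-96082924, 29 regions fell in 59086 bp, or 0.491 per kb. Laid end to end over the sequenced genome, 43153 windows of that length had a median of 0.203 per kb, and 36 of them held as many regions per kb. The covered share of the Hist2 group was 28.6%, at percentile 60.7 of the same windows, and its regions had a median of 300 bp. Of these windows, 16 held at least 9 protein-coding starts, and their median was 0.305 regions per kb, with none as dense as the Hist2 group. Their median covered share was 30.02%, and the Hist2 group was at percentile 43.8 of them by cover.

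The 2 largest Hist1 groups also ranked higher by number of regions than by covered share. In the group of 18 genes, chr13:21807632-21929399, there were 43 regions, or 0.353 per kb, which was at percentile 99.2 of windows of its length, and 32.7% was covered, at percentile 79.0. In the group of 29, chr13:23622919-23856283, there were 73 regions, or 0.313 per kb, at percentile 98.8, and 29.8% was covered, at percentile 72.1. Windows with as many protein-coding starts were rare. There were 3 of the former length, with a median of 0.222 regions per kb, and 1 of the latter, with 0.18, and none was as dense. Their covered share was 24.6% at the median of the 3 and 26.2% in the other, so both groups stood above these few windows by cover too. The smaller Hist1 groups were less dense by rank. The group of 5, chr13:22126982-22135545, held 3 regions, or 0.35 per kb, at percentile 75.7, with 22.4% covered, at percentile 53.9, and both windows of its length with as many starts were denser. No region fell between the first and last base of Hist1h2ba with Hist1h2aa, or in Hist1h2al. The 1487373 bp between the group of 5 and the group of 29, which hold 38 other protein-coding genes, most of them vomeronasal receptors, had 0.206 regions per kb and 22.3% covered. The stretch between the groups of 18 and 5 had 0.218 per kb and 39.9% covered, and that between the group of 29 and Hist1h2ba 0.189 per kb and 29.5%.

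**Figure D4:**
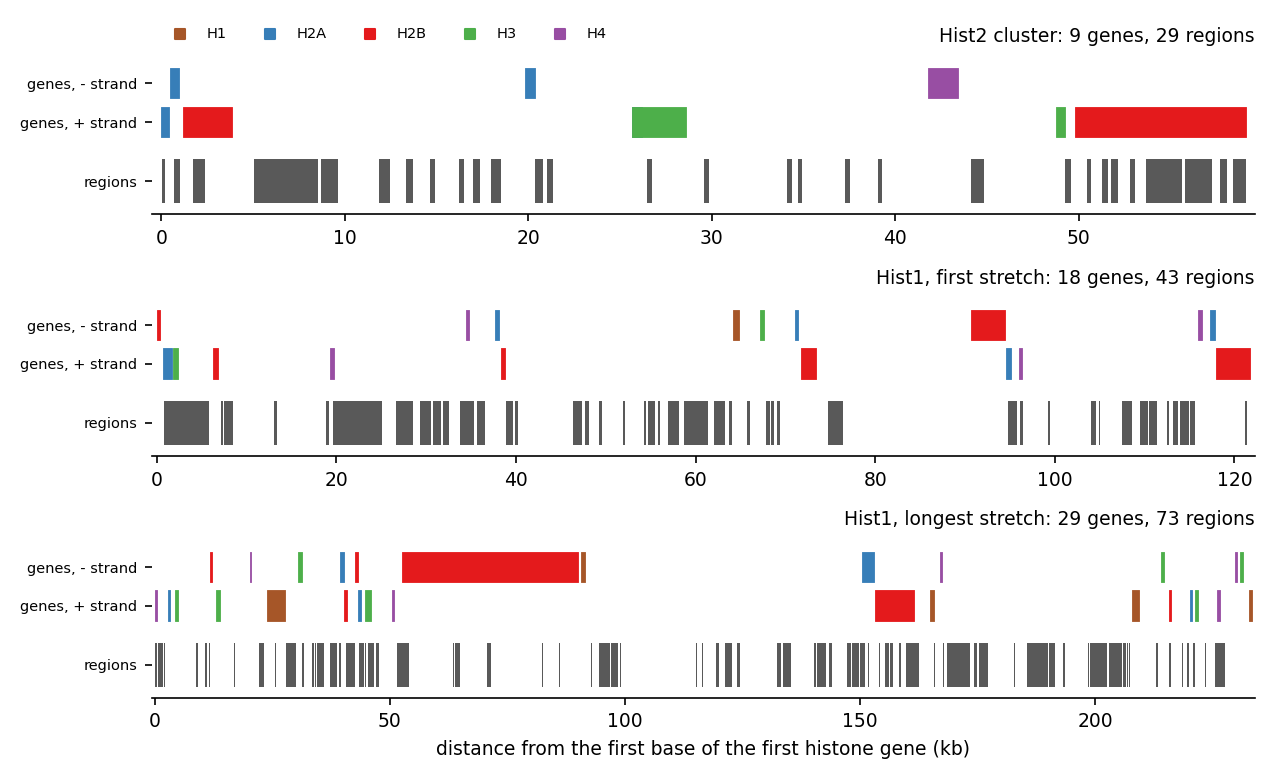
Maps of the Hist2 group and of the 2 largest Hist1 groups, to scale, by distance from the first base of the first histone gene (kb, horizontal axis). Grey blocks are listed regions (29, 43 and 73) and coloured blocks are annotated genes by strand and histone protein. Many regions stand between the genes.

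In the 2 largest Hist1 groups the cover lay mostly between the genes. Member bodies were covered to 14.7% in the group of 18 and the remainder of that group to 35.6%. In the group of 29 the values were 17.2 and 35.0%, but one gene model of 37383 bp, Hist1h2be, weighs on the former. Without it the bodies were covered to 24.8%. The remainder was not recomputed with the bases of Hist1h2be in it, so 24.8 and 35.0% are not a matched contrast. The opposite order was found in the Hist1 group of 5 (37.0% in bodies, 16.5% outside), in Hist3 (51.5 and 20.4%) and in Hist2 (38.2 and 24.2%). In Hist2 most of it came from one gene model, Hist2h2bb, annotated over 9281 bp with 8 regions and 60.8% covered. Without it the bodies were covered to 15.3%, so the order against the same remainder turned. That remainder was not recomputed either. Within 5 kb of the Hist2h2bb start 27.1% was covered.

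Within 5 kb the covered share of the other Hist2 genes was 9.30% at Hist2h4, 9.73% at Hist2h3c1, 9.89% at Hist2h2aa1, 11.4% at Hist2h2ab, 19.2% at Hist2h2aa2, 20.5% at Hist2h2ac, 22.9% at Hist2h2be and 23.1% at Hist2h3b. The 9 genes of this cluster, whose windows partly overlap, thus lay between 9.30 and 27.1%. Hist2h3b was touched by 7 regions within 5 kb but by none within 500 bp. Hist2h2aa1 and Hist2h3c1 overlap in the annotation and share nearly the same window.

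The 3 members of the small clusters had regions near their starts. At Hist3h2ba a 780-bp region reached 513 bp upstream of the start and covered 43.1% of the body, and at Hist3h2a 2 regions covered 54.1%. Their windows within 5 kb were covered to 40.1 and 35.7%. Hist4h4 had no region in its 312-bp body but one that ended 30 bp upstream, and 42.9% of its window within 5 kb was covered.

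Other gene families were measured in the same way. The median covered share within 5 kb was 25.9% for 40 Hox genes, 27% for 24 clustered protocadherins, 23.7% for 1113 olfactory receptors and 24.3% for 144 genes whose symbols begin with Rpl or Rps and a digit, beside 22.9% in the members. The last set takes in S6 kinase genes and annotated pseudogene copies, and the 80 genes left without them and Rps19bp1 had a median of 27.6%. The median number of regions in the 4 sets was 2.5, 2, 2 and 3 in that order. The members' median of 4 was also reached by 10 histone chaperone genes, and 12 genes of the histone locus body and histone mRNA processing had 3.5. Starts inside regions made up 37.5, 12.5, 29.3 and 27.1%, beside 17.9% in the members, whose interval overlaps that of each of these sets. These families differ from the members in gene length.

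Histone genes outside the clusters were listed separately, as replication-independent variants that are made throughout the cell cycle or in particular tissues, with H2afx between the classes by its stem-loop. Of 12 found in the annotation, 10 had a region within 5 kb (83.3%, background 90.5%), with a median cover of 15.1%. A region lay within 500 bp of the start of 4 of them (33.3%, background 43.9%). These were H3f3b, which encodes the variant H3.3, with 80.3% of that window covered, H1fx with 100%, H1foo of the oocyte with 39.0% and H2afz, which encodes H2A.Z, with 21.2%. H3f3a, which encodes the same protein as H3f3b, had no region within 5 kb.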

How the data were processed

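BRG1 ChIP-seq had been performed on 2 duplicates of each treatment with inputs. Per the labels and the methods, the authors mapped reads with Bowtie 1.0.0, keeping reads with at most 2 alignments, to mm9 and called regions with MACS2 2.0.10. The methods name bdgcomp, whereas the deposited list is named like the output of another MACS2 function, bdgdiff. Which of them made the list, and how duplicates were combined, is not given in the sources used here. What a listed region marks, and so what a covered share measures, depends on that call. The deposited list gives start and end of 524614 regions, with no count, score or p-value.

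Genes came from the GENCODE annotation of mm9. Regions touching a window by at least 1 bp were counted and covered bases summed with Python 3.11.15, numpy 2.4.6, pandas 2.3.3 and pysam 0.24.0, after testing on simulated regions. Counts equalled those of bedtools 2.31.1 for all 22367 genes. Genes of like length lay between the 10th and 90th percentile of member lengths. Ranks were mid-ranks among 200 genes. Exact copies of 50-base stretches were counted on both strands with numba 0.67.0.

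Members and lists were chosen with earlier results of these data known. Named were the 5 highest and 5 lowest members by covered share within 5 kb, members with the start or whole body inside regions or with no region within 5 kb, members outside Hist1, H1 genes, the pairs highest and lowest in cover, and genes of the lists with a region within 500 bp. H3f3a, Slbp and the identical gene copies were named after their values were seen. Alternatives changed overlap, joining, region length, windows, members and comparison genes.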

Additional observations from a re-analysis of the deposited data

How the results depend on the processing

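Over 19 alternatives, 71 of 88 values stayed within the 95% binomial interval of the reported value. With regions of at least 600 bp only, a region touched 26.9% of bodies and lay within 500 bp of 26.9% and within 5 kb of 80.6% of starts (75, 31.0 and 74.4% over all protein-coding genes, so members fell below it within 500 bp), the median cover within 5 kb was 11.4%, its median percentile 43.3 and the median number of regions 1. Without Hist1, 12 members remained, with 58.3% of bodies, 66.7% of starts within 500 bp and 100% within 5 kb touched. Their median body cover was 17.1%. Over all protein-coding genes these values were 84.1, 43.9, 90.5 and 23.7% in that order, and at like length 44.8, 42.0, 89.8 and 0%. The 25 members with non-overlapping windows gave 100% within 5 kb, beside the same 90.5%. Other windows moved values by construction: 37.3% at 250 bp and 73.1% at 1000 bp in place of 500 bp (35.6 and 55.4% over all protein-coding genes), 85.1% with a median of 2 regions at 2 kb, and 100% with 7 regions at 10 kb (70.8 and 98.3%). The median percentile by covered share ran from 43.3 to 58.5 over all alternatives. Centring on the first coding base, added after seeing the data, moved no value out of its interval, and neither did any choice not named in this paragraph.

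No paired analysis was possible because the list does not separate the replicates. Leaving out a replicate could not be run for the same reason, and depth limits cannot be given. The list has no score, so no stricter threshold was tried.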

Other observations

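Genes that act on the histone clusters and their products were also measured. Of 12 genes found for the histone locus body and the 3′ processing of histone mRNA, all 12 had a region in the body and within 5 kb of the start. Their median length was 28196 bp, and over all protein-coding genes these shares were 84.1 and 90.5%. In 7 of them a region lay within 500 bp, where the share over all protein-coding genes was 43.9%. The genes were Npat, the coactivator of the clusters, with 4.30% of that window covered, Casp8ap2 (also known as FLASH) with 100%, Lsm10 with 83.7% and Lsm11 with 17.8%, which belong to the U7 particle, Zfp473, a U7-associated zinc finger protein, with 63.0%, Gon4l with 33.7% and Cpsf3, the cleaving enzyme, with 9.19%. Slbp, which binds the stem-loop, had none within 500 bp and a body covered to 36.8%. The body of Lsm10 was covered in full.

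Histone chaperones carry new histones to DNA. All 10 had a region in the body and within 5 kb, beside 84.1 and 90.5% over all protein-coding genes, and their median length was 27024 bp. A region lay within 500 bp of the start of 6, where the share over all protein-coding genes was 43.9%. In that window the covered share was 88.7% at Chaf1a and 58.0% at Chaf1b, subunits of the replication-coupled assembly factor CAF-1, 54.0% at Hira, which deposits H3.3, 28.4% at Nasp, 25.4% at Atrx and 13.7% at Asf1b.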
